A study of Mus musculus with 16 samples.

Results

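The genes described here encode the machinery that carries new proteins out of the endoplasmic reticulum (ER) and through the Golgi. They were chosen by name: a current symbol of Sec, Ssr, Spcs or Srp followed by a digit, or one that starts with Copa, Copb, Cope, Copg, Copz, Tmed, Kdelr, Golga or Lman. Of 79 RefSeq symbols that fit, 71 had a probe on the array, among 32678 genes and unnamed transcripts in all, and the other 8 are not analysed here. Of these 71, 66 were bright enough to test, among 18566 genes and unnamed transcripts tested. Golga7b, Sec16b, Tmed6 and Tmed11 were well above background on too few arrays, and Sec31b lay at the floor of the scale on all 16. The name rule also took in Sec14l1, Sec14l2, Sec14l3 and Sec14l4, lipid-binding proteins that are not part of the export route, so 62 of the 66 belong to it.

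RNA came from epithelium of the airways of mice of the FvB strain and was hybridised to 16 one-colour arrays, 4 in each of 4 groups. Mice were wild type (wt) or knockout (ko) for Itgb6, which encodes the beta6 integrin subunit of epithelial cells. They were sensitized in the peritoneum on days 1, 4 and 7, from an age of 6 to 8 weeks, and challenged in the nose each week over 9 weeks, and the airways were brushed 24 h after the final challenge. The groups wt_OVA and ko_OVA received 20 ug of ovalbumin (OVA), an allergen from egg white, at each sensitization and 10 ug at each challenge, and wt_saline and ko_saline received saline on the same schedule. The labels give neither how the knockout was made nor whether each array is a separate mouse, so p-values measure the spread between these samples.

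Proteins bound for secretion or for membranes enter the ER while they are being made. The signal recognition particle brings the ribosome to the Sec61 channel, signal peptidase cuts off the leader, and folded cargo leaves in vesicles coated by COPII. Vesicles coated by COPI carry escaped ER residents and receptors back. In the airway, mucous (goblet) cells load this route heavily, since they secrete large glycoproteins, the mucins, and allergen challenge of mice is a standard way to provoke them.

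Values are log2 signals with the array's own 75th percentile set to 0, and a difference of 1 is a doubling. That percentile was lowest on ko_OVA 4 (78.0 intensity units) and highest on ko_saline 3 (793), and the share of probes well above background was 43.3% to 62.7% on 14 arrays. On wt_OVA 1 and wt_OVA 2 it was 74.5% and 72.7%, so these arrays stood apart from their group and from the rest. The number of arrays limits the precision. Itgb6 gave signal on every array. It overlapped between genotypes after saline (-0.93 to -0.39 in wt, -1.02 to -0.73 in ko) and was lower on every ko array after OVA (-0.64 to -0.56 in wt, -1.71 to -0.96 in ko; -0.58 ± 0.16, unadjusted p = 0.00295, adjusted p = 0.547 in limma). Striated muscle genes, which mark other tissue in a brushing, varied widely within groups: the mean of 11 such genes ran from -2.42 to 1.28 in wt_saline, -2.85 to 3.58 in wt_OVA, -2.61 to 4.16 in ko_saline and -2.90 to -1.26 in ko_OVA. Their part in the results below was not tested. All 66 genes were read from a limma fit on the whole table, and a gene is said to have risen or fallen where its p, Benjamini-Hochberg adjusted over all 18566, was under 0.05.

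Some export genes rose after OVA, by small amounts. With the OVA effect averaged over both genotypes, 9 of 66 rose and 0 fell, while 3.72% of all genes tested rose and 2.74% fell. The 9 were the signal peptidase genes Sec11c and Spcs2, the translocon-associated genes Ssr3 and Ssr2, the COPII genes Sec24d and Sec23b, the COPI gene Copa, the KDEL receptor Kdelr3 and the cargo lectin Lman2. Their differences ran from 0.24 to 0.66, or 1.18-fold to 1.58-fold. At an unadjusted p under 0.05 there were 24 higher and 3 lower members, that is 36.4% and 4.55%, against 10.3% and 9.47% of all genes. The median difference over the 66 was 0.16 and 53 were positive, against a median of 0.01 over all genes, of which 9853 of 18566 were positive. With slide as a fixed block, Sec23b, Lman2, Copa and Ssr2 did not pass. With each array set to its median in place of its 75th percentile, 0 of the 66 passed in limma, and all genes split into 110 that rose and 255 that fell in place of 691 and 509. The median probe was at or below the floor on 13 of 16 arrays, and lay 2.41 below the 75th percentile on wt_OVA 1 against 3.28 to 3.84 on the others. Without wt_OVA 1, 4 members rose under median scaling, 3 of them among the 9 above (Sec11c, Sec24d and Spcs2). All genes then split into 326 that rose and 327 that fell. Without wt_OVA 1 and 2, 7 rose under median scaling, and only 3 of them were among the 9 above (Kdelr3, Sec11c and Spcs2). All genes then split into 364 and 212. With the scaling used here, 9 members also rose on average without those 2 arrays, 6 of them among the 9 above; Lman2 (adjusted p = 0.056), Sec23b (0.0777) and Ssr2 (0.0869) did not pass.

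Within wt alone 2 members rose, Sec11c and Sec24d, and 0 fell, against 1.56% of all genes higher and 1.06% lower. At an unadjusted p under 0.05, 11 members were higher (16.7%) and 3 lower (4.55%) in wt, against 8.86% and 7.68% of all genes. Within ko alone 3 rose, Sec11c, Sec24d and Spcs2, and 0 fell, against 0.479% and 0.269% of all genes. Unadjusted, 18 were higher (27.3%) and 0 lower in ko, against 5.39% and 4.34% of all genes. All wt_OVA arrays lay above all wt_saline arrays for 9 members and below them for 2, Copz2 and Sec22a, while 4.87% and 4.41% of all genes were separated in these ways. All ko_OVA arrays lay above all ko_saline arrays for 13 members and below for 0, against 3.09% and 2.14% of all genes. Some of these separations rest on fewer arrays. In wt, Lman1 had no value on wt_saline 4 and wt_OVA 2, Tmed3 none on wt_OVA 2 and Spcs2 none on wt_saline 4. In ko, Srp14 had none on ko_OVA 3. The median member difference was 0.09 in wt (50 of 66 positive) and 0.17 in ko (55 of 66). With median scaling, 0 members passed in limma in either genotype, and the median member difference was -0.19 in wt, where the median of all genes was -0.24, and 0.19 in ko. All genes then split into 37 that rose and 62 that fell in wt, in place of 289 and 196. Without wt_OVA 1 and 2, on the scaling used here, 0 members rose in wt (Sec11c 0.60, adjusted p = 0.116; Sec24d 0.41, adjusted p = 0.153) and 1 in ko, Spcs2.

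**Figure D1:**
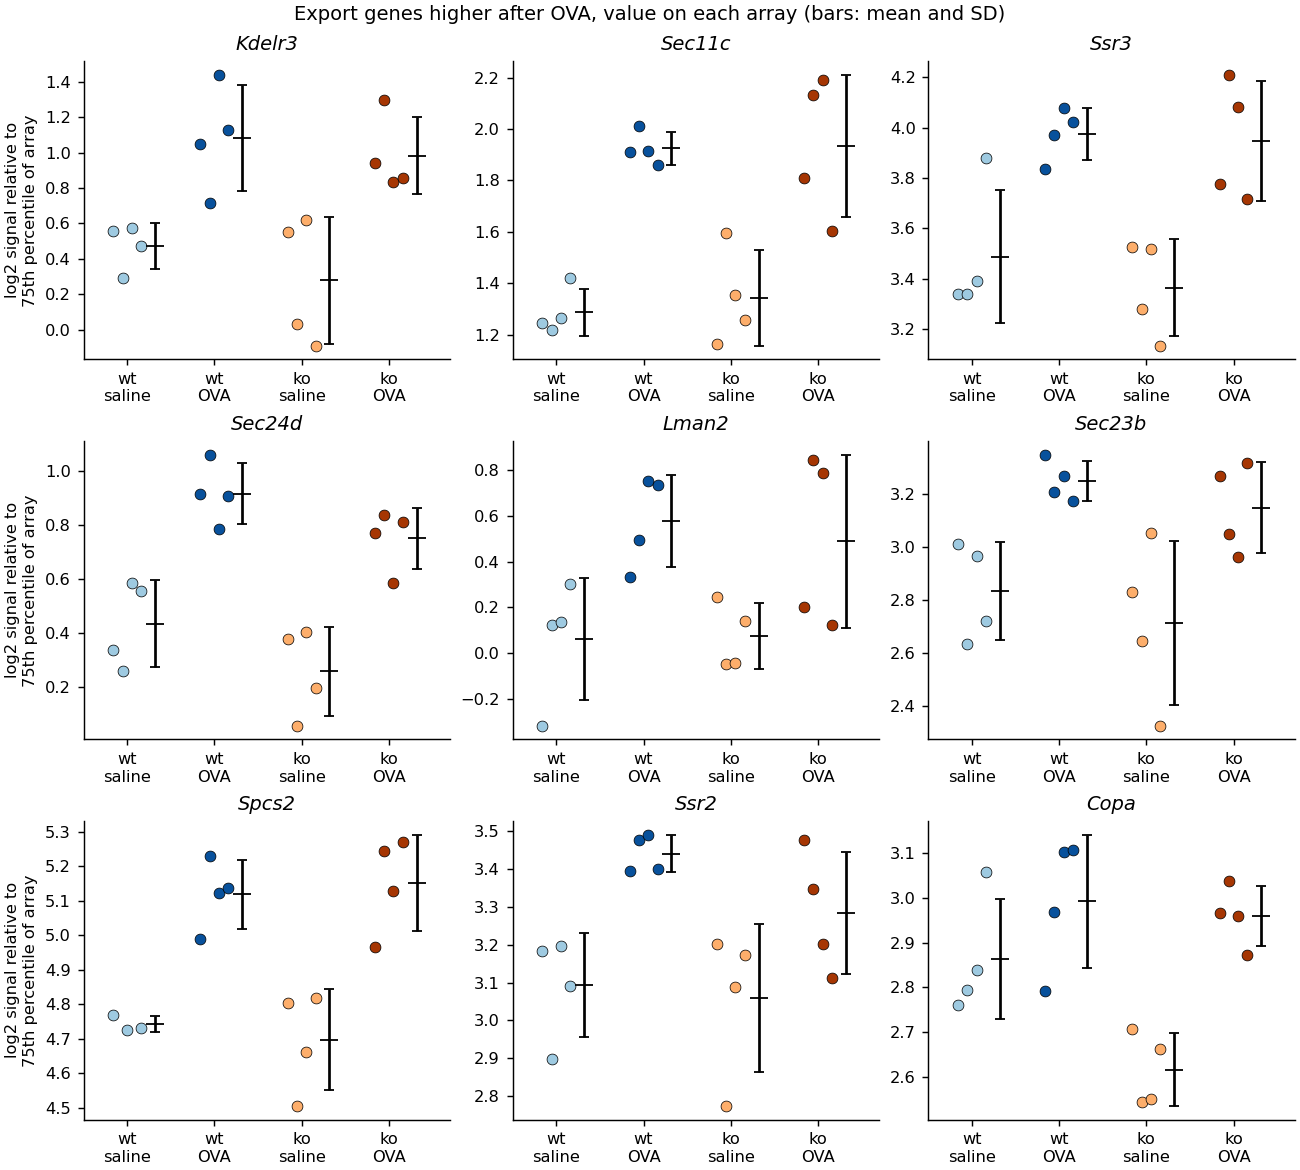
Scaled log2 signal (vertical axes, 0 being the 75th percentile of an array) for the 9 export genes that rose after OVA averaged over genotypes. Points are single arrays of wt_saline, wt_OVA, ko_saline and ko_OVA, and bars are the mean and SD. Spcs2 has no value on wt_saline 4. Sec11c, Sec24d, Kdelr3 and Spcs2 had all OVA arrays above all saline arrays of the same genotype in both genotypes, while Lman2, Ssr2 and Sec23b overlapped in ko and Copa and Ssr3 overlapped in wt.

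Promoters of the members were read for the elements bound by ATF6, XBP1 and CREB3-family factors, since promoters of some ER folding and export genes are known to carry them. RefSeq windows of GRCm38.p6, from 250 bases before the start to 50 after it, were on hand for 54 of the 66 tested members. Searched on both strands were ERSE (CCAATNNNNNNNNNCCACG), ERSE-II (ATTGGNCCACG), TGACGTG and the core ACGTG, which TGACGTG contains (N is any base). The core was found in 32 of 54 members (59.3%), against 28.2% of all genes tested and 21.8% of all genes with a window. ER chaperones also held it more often than all genes, in 9 of 21 (42.9%). TGACGTG was found in 6 of 54 members (11.1%), against 3.15% and 2.22%, and in 1 of 21 chaperones (4.76%). ERSE was found in 0 of 54 members, against 9 of 21 ER chaperones (42.9%) and 0.205% of all genes tested, and ERSE-II in 0 of 54 against 2 of 21. The median GC content of the windows was 59.2% for members, 60% for all genes tested and 64.5% for chaperones. A match is a run of letters, not a shown site.

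The 32 members with ACGTG had a median averaged difference of 0.10, with 4 that rose, and the 22 without it 0.17, with 3 that rose. Of the 7 risen members with a window, Kdelr3, Sec24d, Lman2 and Ssr3 held the core, and their 200 bases before the start are shown because these are the risen members with a match. Hspa5, which encodes BiP, is shown beside them: its promoter is a well-known carrier of ERSE. It was chosen after its values were seen, and rose by 0.94 (adjusted p = 0.000147). Capitals mark the core in Lman2 (-84 to -80) and, on the opposite strand, in Ssr3 (-189 to -185). In Sec24d they mark TGACGTG (-26 to -20), in Kdelr3 the core (-79 to -75) and TGACGTG on the opposite strand (-29 to -23), and in Hspa5 ERSE (-65 to -47). Hspa5 also holds TGACGTG, the run marked in Sec24d, at -157 to -151, left in lower case here. The stretches are chr15:79516208-79516407 (plus strand) for Kdelr3, chr3:123267296-123267495 (plus) for Sec24d, chr13:55362784-55362983 (minus) for Lman2, chr3:65392554-65392753 (minus) for Ssr3 and chr2:34771890-34772089 (plus) for Hspa5.
Kdelr3: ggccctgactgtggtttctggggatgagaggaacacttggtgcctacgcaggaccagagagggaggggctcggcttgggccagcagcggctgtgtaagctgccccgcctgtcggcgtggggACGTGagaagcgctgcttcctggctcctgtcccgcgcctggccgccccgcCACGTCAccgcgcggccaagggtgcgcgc
Sec24d: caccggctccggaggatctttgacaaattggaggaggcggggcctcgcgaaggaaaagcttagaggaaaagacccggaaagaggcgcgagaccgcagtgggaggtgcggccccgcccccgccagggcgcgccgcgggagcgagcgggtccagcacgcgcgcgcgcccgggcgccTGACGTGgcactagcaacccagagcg
Lman2: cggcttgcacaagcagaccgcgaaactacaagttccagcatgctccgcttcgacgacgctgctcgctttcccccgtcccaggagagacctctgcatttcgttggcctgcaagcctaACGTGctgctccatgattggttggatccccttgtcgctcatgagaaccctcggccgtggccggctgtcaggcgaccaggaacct
Ssr3: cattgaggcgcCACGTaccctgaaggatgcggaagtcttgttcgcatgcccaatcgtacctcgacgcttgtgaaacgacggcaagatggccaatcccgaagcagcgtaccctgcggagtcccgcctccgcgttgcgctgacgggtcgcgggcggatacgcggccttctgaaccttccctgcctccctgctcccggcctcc
Hspa5: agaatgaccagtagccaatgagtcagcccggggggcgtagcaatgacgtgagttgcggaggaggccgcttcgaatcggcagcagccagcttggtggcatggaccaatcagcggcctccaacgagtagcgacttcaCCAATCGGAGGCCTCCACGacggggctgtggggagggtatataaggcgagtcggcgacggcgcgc

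At the first step, no gene of the signal recognition particle passed the test. Its 6 genes, which encode protein subunits of the particle that halts the ribosome and docks it at the ER, had a median averaged difference of 0.09, and all 6 were positive, from 0.01 for Srp14 to 0.21 for Srp9. Srp9, which with Srp14 forms the part that pauses elongation, had an unadjusted p of 0.015 and an adjusted p of 0.127. Srp72, which with Srp68 forms a scaffold on the particle's RNA, stood at 0.16 (adjusted p = 0.168). Around this step lies a list of 15 further genes tested: the receptor of the particle, TRAM proteins and the tail-anchor insertion route. None of the 15 passed in limma, 2 were higher and 1 lower at an unadjusted p under 0.05, and the smallest p values belonged to Tram2, at -0.36 (adjusted p = 0.0756), and Get1, at 0.27 (adjusted p = 0.0784).

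At the ER membrane, 2 of 10 genes rose, both encoding subunits of the TRAP complex, and no gene of the channel itself passed. All 10 genes of the Sec61 translocon and the TRAP complex, which sits beside the channel and helps certain leaders to enter, had a positive difference, with a median of 0.24. Ssr3, the gamma subunit, read 3.34, 3.34, 3.39 and 3.88 in wt_saline, 3.84, 3.97, 4.08 and 4.02 in wt_OVA, 3.53, 3.28, 3.52 and 3.13 in ko_saline and 3.78, 4.21, 4.08 and 3.72 in ko_OVA. It rose by 0.54 ± 0.10 (SE, adjusted p = 0.00704). The ko groups did not overlap, and in wt a single saline array, wt_saline 4, lay among the OVA arrays. Both other kept probes of Ssr3 were also higher, by 0.34 and 0.55.

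Ssr2, the beta subunit, ran from 2.90 to 3.20 in wt_saline, 3.40 to 3.49 in wt_OVA, 2.77 to 3.20 in ko_saline and 3.11 to 3.48 in ko_OVA, and rose by 0.29 ± 0.08 (adjusted p = 0.0411, and 0.111 with slide as a block). Its groups were separate in wt and overlapped in ko. Ssr4, the delta subunit, stood just outside the threshold at 0.31 ± 0.09 (adjusted p = 0.0508) with separate groups in ko, and Ssr1, the alpha subunit, at 0.17 (adjusted p = 0.245). Of the channel genes, Sec61b had a difference of 0.30 (adjusted p = 0.254), Sec61g 0.27 (adjusted p = 0.394) and Sec61a1, the pore itself, 0.15 (adjusted p = 0.389). Sec63, which couples the ER chaperone BiP to the channel, stood at 0.20 (adjusted p = 0.162), and its partner Sec62 at 0.00 (adjusted p = 0.996). Sec61a2, a second form of the pore, lay between -3.32, the floor, and -2.64 on every array.

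Signal peptidase, which removes the leader as the chain enters, had the highest median of the route, 0.26 over 5 genes, all positive. Sec11c, one of its alternative catalytic subunits, read 1.24, 1.22, 1.26 and 1.42 in wt_saline against 1.91, 2.01, 1.92 and 1.86 in wt_OVA. In ko_saline it read 1.16, 1.60, 1.35 and 1.26, and in ko_OVA 1.81, 2.13, 2.19 and 1.60. The OVA groups were higher with no overlap in either genotype, although the highest ko_saline array and the lowest ko_OVA array both stood at 1.60. Sec11c rose by 0.64 ± 0.13 in wt (adjusted p = 0.0155), by 0.59 ± 0.13 in ko (adjusted p = 0.0491) and by 0.62 ± 0.09 on average (adjusted p = 0.00106), a 1.53-fold change.

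Spcs2, a non-catalytic subunit, read 4.77, 4.73 and 4.73 in wt_saline, where the spot of wt_saline 4 was left out as an outlier. It read 4.99, 5.23, 5.12 and 5.14 in wt_OVA, 4.80, 4.50, 4.66 and 4.82 in ko_saline and 4.97, 5.24, 5.13 and 5.27 in ko_OVA, with no overlap in either genotype. It rose by 0.46 ± 0.09 in ko (adjusted p = 0.0463) and by 0.42 ± 0.07 on average (adjusted p = 0.00339), and stood at 0.38 ± 0.10 in wt (adjusted p = 0.0726). Another probe of Spcs2 gave an averaged difference of 0.20. Sec11a, the other catalytic subunit, stood at 0.26 (adjusted p = 0.116), Spcs3 at 0.18 (adjusted p = 0.348) and Spcs1 at 0.07 (adjusted p = 0.712).

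The oligosaccharyltransferase works beside the channel and adds the N-linked sugar tree to the entering chain. In a list of its 11 genes 3 rose on average and 0 fell, and all 11 were positive with a median of 0.22. Ddost, a core subunit, rose by 0.56 (adjusted p = 0.00634), Tusc3, an oxidoreductase subunit, by 0.42 (adjusted p = 0.00902) and Ostc, which links the enzyme to the channel, by 0.34 (adjusted p = 0.0184).

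The COPII coat, which buds vesicles from ER exit sites, was split among its genes. Among its 9 genes, 2 rose, and the median was 0.09. Sec24d, one of 4 alternative adaptors that choose cargo, read 0.34, 0.26, 0.58 and 0.56 in wt_saline and 0.91, 1.06, 0.78 and 0.91 in wt_OVA, then 0.38, 0.05, 0.40 and 0.19 in ko_saline and 0.77, 0.84, 0.59 and 0.81 in ko_OVA. Neither genotype overlapped between agents. It rose by 0.48 ± 0.11 in wt (adjusted p = 0.027), by 0.49 ± 0.11 in ko (adjusted p = 0.0495) and by 0.49 ± 0.08 on average (adjusted p = 0.00156).

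Sec23b, which activates hydrolysis by the coat's GTPase Sar1, ran from 2.63 to 3.01 in wt_saline, 3.17 to 3.35 in wt_OVA, 2.33 to 3.05 in ko_saline and 2.96 to 3.32 in ko_OVA. Its wt groups were separate and its ko groups overlapped. It rose by 0.42 ± 0.10 on average (adjusted p = 0.0232, and 0.0502 with slide as a block), and its second probe stood at 0.45. The adaptor Sec24b stood at 0.28 (adjusted p = 0.0804), Sec24c at 0.01 and Sec24a at -0.02, and the scaffold genes Sec16a and Sec13 at 0.18 (adjusted p = 0.327) and -0.03. Of 19 partners of the coat, 3 rose and 0 fell: Bcap29, a sorting protein of the ER membrane, by 0.55, Ergic1 by 0.42 and Mcfd2, which works with Lman1, by 0.30.

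**Figure D2:**
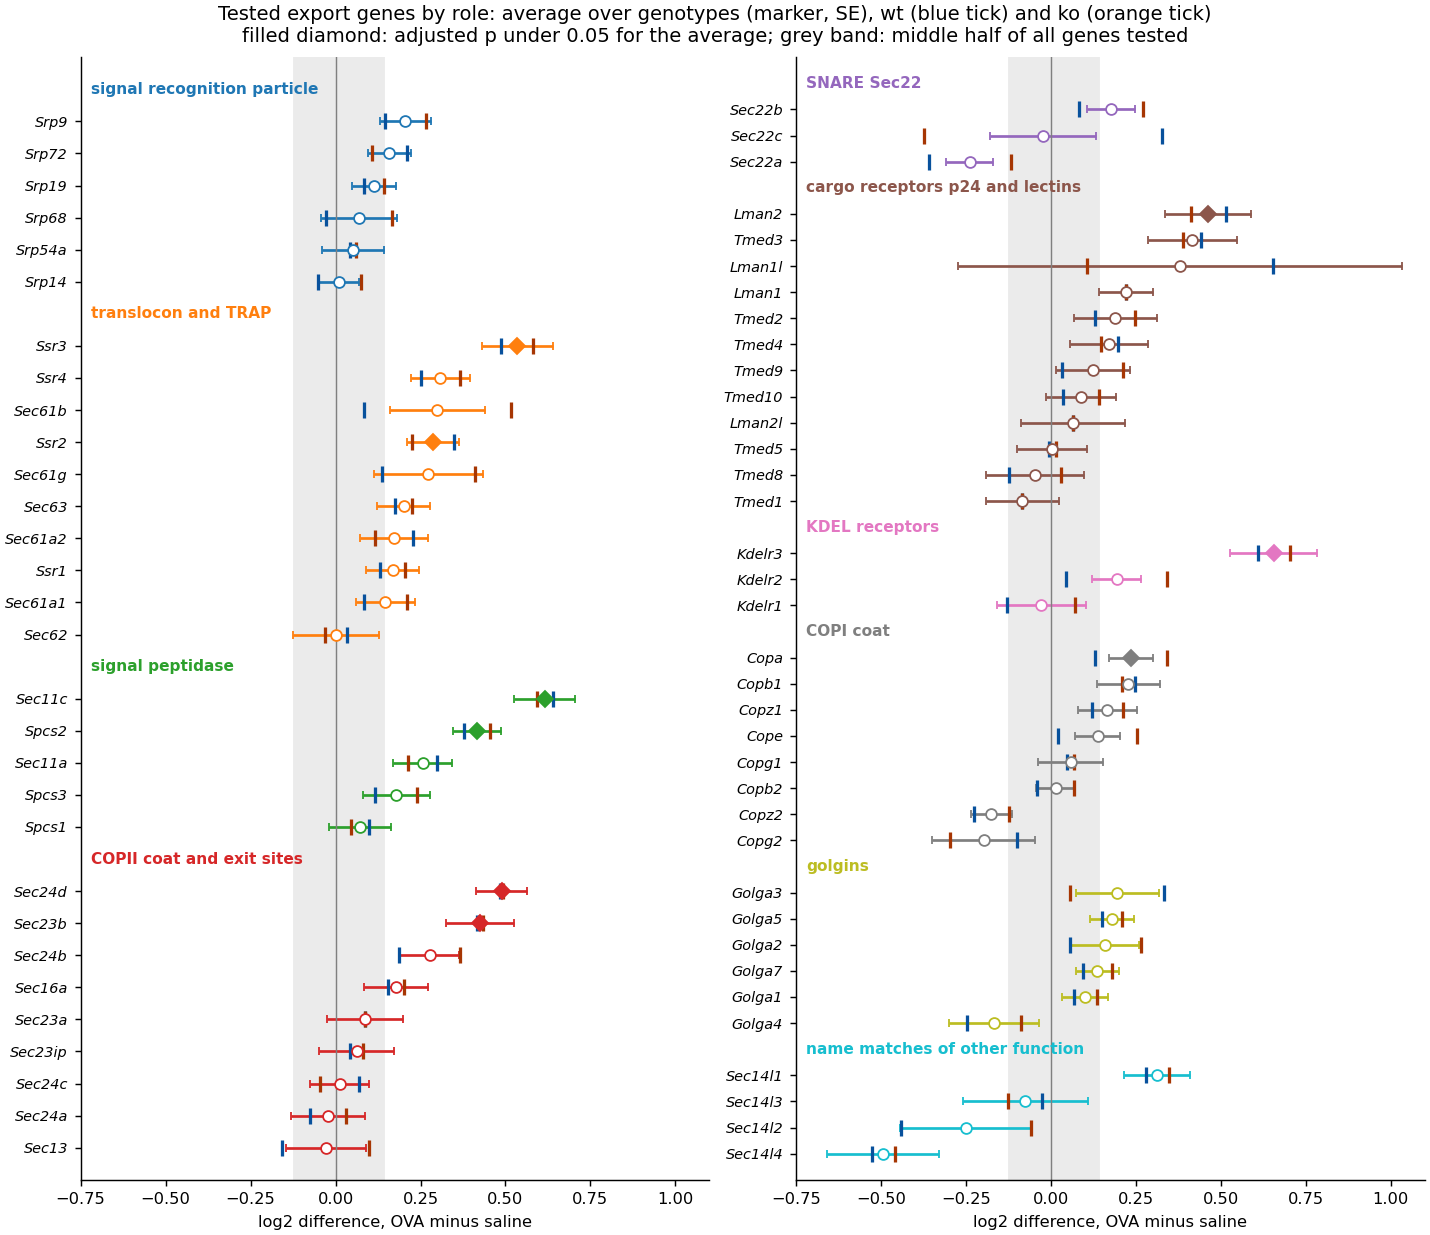
Log2 difference, OVA minus saline (horizontal axes), for the 66 tested export genes grouped by role. Markers with SE bars are the average over genotypes, blue and orange ticks are wt and ko, filled diamonds have an adjusted p under 0.05, and the grey band spans the quartiles of all genes tested, -0.12 to 0.14. All 10 translocon and TRAP genes and all 5 signal peptidase genes lie to the right of 0, while Copz2, Copg2, Sec22a, Golga4, Sec14l2 and Sec14l4 lie to the left of the band.

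Receptors that load cargo into vesicles gave 1 rise among 12 genes tested, with a median of 0.15 and 10 positive. Lman2, a lectin that binds high-mannose sugars, read -0.32, 0.12, 0.13 and 0.30 in wt_saline and 0.33, 0.50, 0.75 and 0.73 in wt_OVA. In ko_saline it read 0.25, -0.04, -0.04 and 0.14, and in ko_OVA 0.20, 0.84, 0.78 and 0.12, so that ko_OVA 1 and 4 lay among the saline arrays. It rose by 0.46 ± 0.13 on average (adjusted p = 0.0424, and 0.073 with slide as a block). Lman1, the receptor of some clotting factors, stood at 0.22 (adjusted p = 0.133). Among the p24 proteins Tmed3 stood highest at 0.42 ± 0.13 (adjusted p = 0.0818), Tmed2 and Tmed10 at 0.19 and 0.09, and Tmed1 lowest at -0.08. Lman1l varied too much between arrays to be read, from -3.32 to 1.43 within ko_saline.

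Kdelr3, one of 3 receptors that return escaped ER residents, had the largest averaged difference of all members. It read 0.56, 0.29, 0.58 and 0.47 in wt_saline and 1.05, 0.72, 1.44 and 1.13 in wt_OVA. In ko_saline it read 0.55, 0.03, 0.62 and -0.09, and in ko_OVA 0.94, 1.30, 0.84 and 0.86. Every OVA array lay above every saline array of either genotype. Kdelr3 rose by 0.66 ± 0.13 on average (adjusted p = 0.00743), or 1.58-fold, and stood at 0.61 ± 0.18 in wt (adjusted p = 0.0971) and 0.70 ± 0.18 in ko (adjusted p = 0.112). Kdelr2 stood at 0.19 (adjusted p = 0.138) and Kdelr1 at -0.03 (adjusted p = 0.936).

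The COPI coat, which serves the return route, gave 1 rise among 8 genes, with a median of 0.10. Copa, its alpha subunit, ran from 2.76 to 3.06 in wt_saline and 2.79 to 3.11 in wt_OVA, which overlap. It read 2.71, 2.54, 2.55 and 2.66 in ko_saline and 2.97, 3.04, 2.96 and 2.87 in ko_OVA, which do not. Copa rose by 0.24 ± 0.06 on average (adjusted p = 0.0438, and 0.0978 with slide as a block), the smallest of the 9 changes. Copb1 stood at 0.23 (adjusted p = 0.179) and Cope at 0.14 (adjusted p = 0.269), while Copz2 and Copg2 stood at -0.17 (adjusted p = 0.106) and -0.20 (adjusted p = 0.539). Of 10 partners of the coat 1 rose, Arfgap3, which deactivates the coat's GTPase Arf1, by 0.26.

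The Sec22 genes and the golgins, grouped by name under the fusion and tethering of vesicles, gave no calls. Sec22a read 1.39, 1.40, 1.46 and 1.62 in wt_saline and 1.04, 1.13, 1.09 and 1.17 in wt_OVA, all lower, but overlapped in ko, and stood at -0.24 ± 0.07 on average (adjusted p = 0.0577). Sec22b, the member that works between ER and Golgi, stood at 0.18 (adjusted p = 0.185). The 6 genes named Golga had a median of 0.15, from -0.17 for Golga4 to 0.20 for Golga3, with unadjusted p under 0.05 for Golga5 and Golga7. Of 24 other Golgi tethers and SNARE proteins 1 rose and 1 fell. Uso1, the long tether known as p115, rose by 0.43 (adjusted p = 0.00345), and Use1, a SNARE of return traffic, fell by 0.44 on the log2 scale (adjusted p = 0.0448). The 4 Sec14-like genes, which only share the name, had a median of -0.16, from -0.49 for Sec14l4 (adjusted p = 0.0973) to 0.31 for Sec14l1 (adjusted p = 0.0732).

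Several close relatives differed in their response. All pairs within 10 families of such relatives were compared, 19 pairs in all, by the difference between their log2 signals on each array, in which the array's scaling cancels. These pairs were drawn up after member values had been seen, and the Tmed genes were not among the families. Sec24d, Kdelr3, Sec23b, Sec11c and Lman2 had already been picked for their rise on the same arrays. For pairs that hold one of them, the p-values below are therefore no separate support for that rise. With an exact permutation test within genotypes, two-sided and adjusted over the 19 pairs, 11 pairs differed in their averaged OVA response. Sec24d exceeded Sec24a by 0.51 (exact p = 0.000408, the smallest that 4900 permutations can give, adjusted p = 0.00776), Sec24c by 0.48 (adjusted exact p = 0.0116) and Sec24b by 0.21 (adjusted exact p = 0.0267). Sec24b exceeded Sec24a by 0.30 (adjusted exact p = 0.0166). Sec24c over Sec24a (0.03) and Sec24b over Sec24c (0.27) did not pass.

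Kdelr3 exceeded Kdelr2 by 0.46 (adjusted exact p = 0.0166) and Kdelr1 by 0.68 (adjusted exact p = 0.0262), and Kdelr2 against Kdelr1 stood at 0.22 (adjusted exact p = 0.188). Sec23b exceeded Sec23a by 0.34 (adjusted exact p = 0.0338), and Sec11c exceeded Sec11a by 0.32 over the 13 arrays that measured both (adjusted exact p = 0.0271). Lman2 exceeded Lman2l by 0.40, Copz1 exceeded Copz2 by 0.34 and Sec22b exceeded Sec22a by 0.43, each with an adjusted exact permutation p of 0.0166. The other pairs, Copg1 with Copg2, Sec61a1 with Sec61a2, Lman1 with Lman1l and Sec22c with each of its relatives, did not pass. Sec24d against Sec24a and Sec24c, Kdelr3 against Kdelr2, Lman2 against Lman2l and Copz1 against Copz2 passed under all 6 alternatives tried and without any one array. Median scaling is 1 of the 6. It moves both genes of a pair alike above the floor, so that pass was fixed in advance. Keeping spots marked as outliers is another that could test these pairs little. Their genes lacked no array, so it could change a pair only where a probe has several spots, and its scaling cancels. The other 6 of the 11 did not pass with normexp background correction. Sec22b against Sec22a also missed with the mean of all probes and with the series matrix values, and Sec23b against Sec23a with the latter. Without ko_OVA 1 or ko_OVA 2, Kdelr3 against Kdelr1, Sec24d against Sec24b and Sec11c against Sec11a missed the threshold, at adjusted exact p of 0.0504 to 0.0921, as did Sec11c against Sec11a without wt_saline 1. Sec23b against Sec23a missed when 1 of 8 arrays was left out (wt_saline 2 or 4, wt_OVA 1, 2 or 3, ko_saline 1 or 4, or ko_OVA 1), at adjusted exact p of 0.053 to 0.0672.

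**Figure D3:**
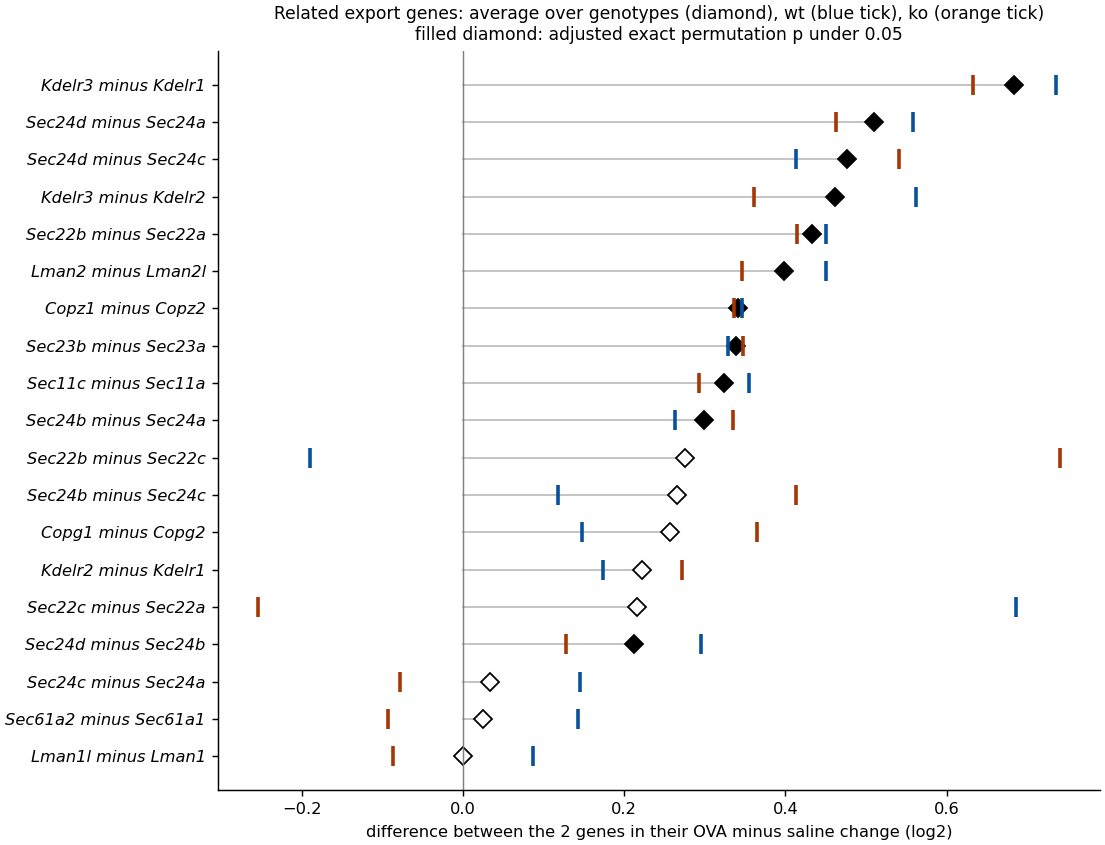
Difference between 2 related export genes in their OVA minus saline change, on the log2 scale (horizontal axis), for 19 pairs turned so that the average is positive. Diamonds are averages over genotypes, filled where the adjusted exact permutation p was under 0.05, and ticks are wt (blue) and ko (orange). The largest was Kdelr3 minus Kdelr1 at 0.68, and the 11 filled pairs lie between 0.21 and 0.68 with both ticks to the right of 0.

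No export gene passed a test between genotypes. After saline, 0 of 66 members were higher and 0 lower in ko than in wt in limma, against 0.124% and 0.0377% of all genes, and 0 and 4 members (0% and 6.06%) had an unadjusted p under 0.05, against 3.04% and 3.26% of all genes. Copa and Sec61b had all ko_saline arrays below all wt_saline arrays, at -0.25 ± 0.09 (adjusted p = 0.675) and -0.52 ± 0.20 (adjusted p = 0.719), and 0 members had all above; 2.06% and 1.99% of all genes were separated in these ways. After OVA, 0 members were higher and 0 lower, against 0.102% and 0.0431% of all genes, with 0 at an unadjusted p under 0.05, and Copb2 and Srp14 had all ko_OVA arrays above all wt_OVA arrays, by 0.14 and 0.12, and 0 members had all below, against 1.63% and 0.743% of all genes. Of the members named as separated, Sec61b had no value on wt_saline 4, and Srp14 had none on wt_OVA 2 and ko_OVA 3. The interaction, which asks whether OVA acts differently in the genotypes, gave 0 members in limma and 0 of all 18566, with 1 member, Sec22c at -0.70, under an unadjusted p of 0.05. The ko response minus the wt response was -0.05 ± 0.18 (SE) for Sec11c, 0.10 ± 0.26 for Kdelr3, 0.09 ± 0.21 for Ssr3 and 0.21 ± 0.13 for Copa. With SEs of this size a modest difference between genotypes was not detectable.

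Larger changes were found in genes that set secretory capacity. ER chaperones and quality-control genes, a list that overlaps no member, rose in 15 of 22 and fell in 0, with a median of 0.72 and all 22 positive. Derl3, of ER-associated degradation, rose by 2.07, Sdf2l1, a chaperone partner, by 1.36, Creld2 by 1.22 and Pdia4, a disulfide isomerase, by 1.14. Of 16 regulators of secretory capacity 6 rose and 0 fell, with a median of 0.35. Foxa3 and Spdef, which drive mucous cell fate, rose by 1.71 and 1.23, Creb3l4, a membrane-bound transcription factor, by 1.50, and Ern2, the stress sensor of mucous epithelium, by 0.89. The largest member difference, 0.66, lay below the chaperone median.

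**Figure D4:**
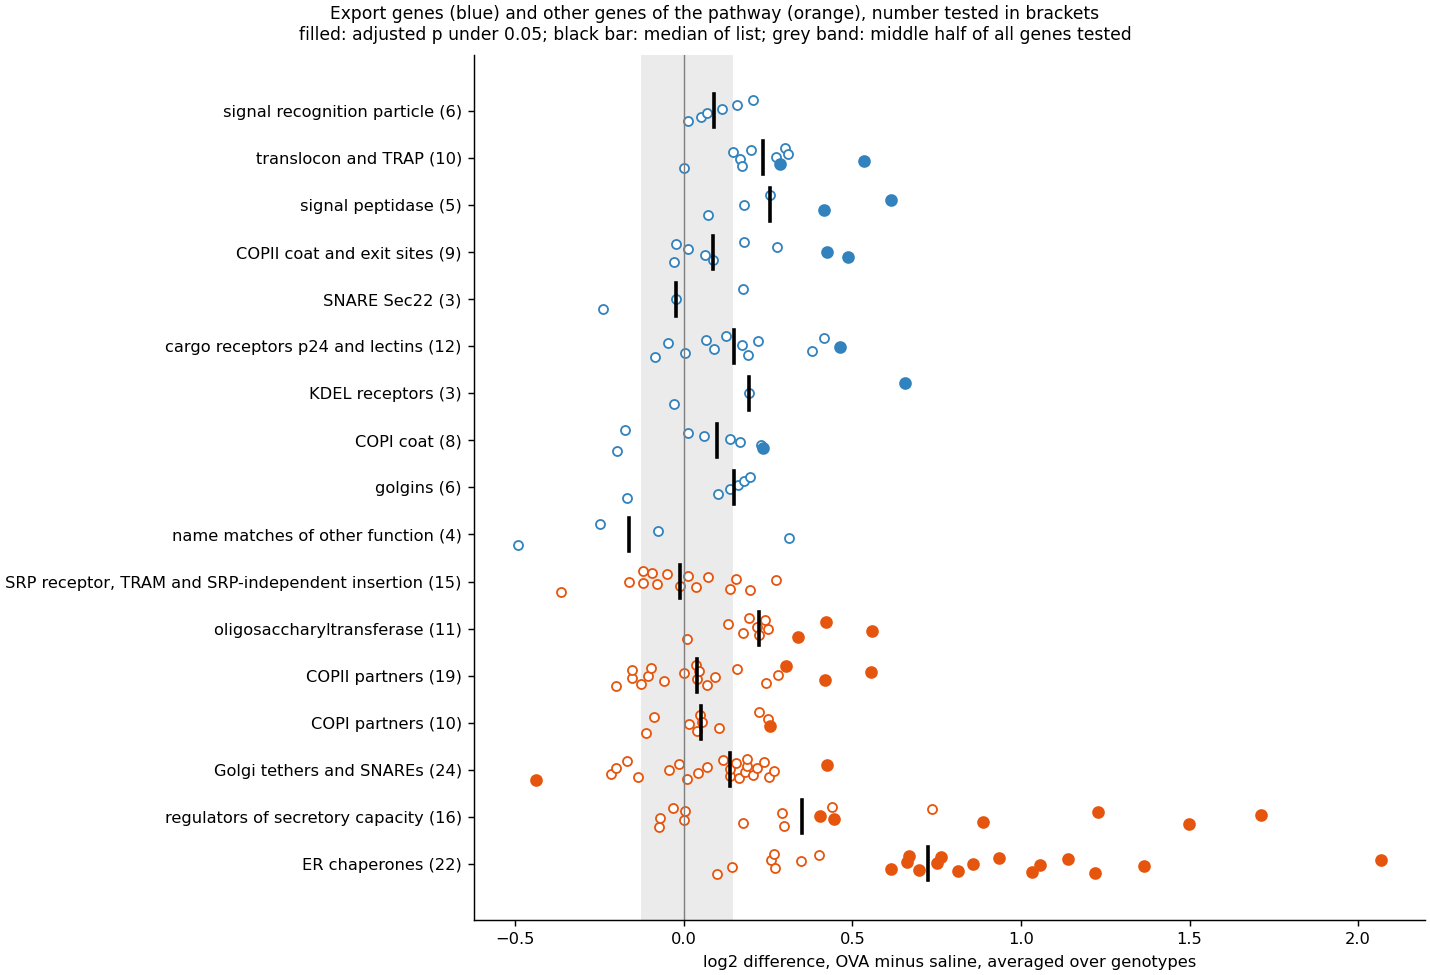
Log2 difference, OVA minus saline averaged over genotypes (horizontal axis), for export genes by role (blue) and for other genes of the pathway (orange), with the number tested in brackets. Filled points have an adjusted p under 0.05, black bars are list medians, and the grey band spans the quartiles of all genes tested. The medians of the export roles lie between -0.16 and 0.26, and those of the regulators and ER chaperones at 0.35 and 0.72.

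Cell type markers also differed between OVA and saline; each mean level below is over the genes of a list measured on every array (10 mucous, 7 ciliated, 5 club, 10 mast, 9 B and plasma cell). All 13 mucous cell genes tested rose on average, and their mean level ran from 0.95 to 1.28 in wt_saline, 3.16 to 3.86 in wt_OVA, 0.94 to 1.32 in ko_saline and 2.31 to 4.10 in ko_OVA. Foxa3 and Spdef are counted in both that list and the regulators. Of 11 ciliated cell genes 7 rose, and their mean level ran from 3.01 to 3.38 in wt_saline, 3.57 to 3.93 in wt_OVA, 3.02 to 3.46 in ko_saline and 3.43 to 3.81 in ko_OVA. Of 9 club cell genes 4 fell, with mean levels of 3.27 to 3.48, 2.47 to 2.74, 3.10 to 3.84 and 2.79 to 2.99 in the same order. All 4 that fell are among the 5 genes in that mean. The 4 club cell genes left out of it did not pass, and stood between -0.23 and 0.06 on average. Of 10 mast cell genes 8 rose on average, 7 in wt and 1 in ko (Mcpt2), and 0 passed for the interaction in limma, where 8 were lower and 0 higher at an unadjusted p under 0.05. Their mean levels were -2.17 to -1.58, -0.17 to 0.72, 1.12 to 1.45 and 1.40 to 1.96. Mast cell genes also passed in limma between genotypes. After saline Cpa3 was higher in ko by 5.19 (adjusted p = 4.23e-07). For ko against wt after OVA, Cma2 stood at 3.27 (adjusted p = 0.000192) and Mcpt1 at -4.18 (adjusted p = 0.00067). Of 9 genes of B and plasma cells, themselves rich in ER, 1 rose, Derl3, and their mean levels overlapped between agents: -1.40 to -1.08, -1.29 to 0.47, -1.11 to -0.14 and -1.17 to -0.85. Derl3 is counted among the ER chaperones as well. No gene of these lists was at the floor on all 16 arrays. In whole epithelium a change in the number of cells of a type and a change in RNA per cell cannot be told apart, and the part of the cell makeup in the export gene differences was not tested.

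Arrays came from 4 slides. Slides 1, 2 and 3 hold both agents of wt, and slides 1, 2 and 4 hold both agents of ko. Within slides, 8 of the 9 risen members were higher after OVA on every such slide in wt, all but Copa, and 8 of 9 in ko, all but Lman2. Spcs2 was measured on only 2 such slides in wt. The 9 were picked for their rise on the same arrays, so these signs are no separate support for it. The median over all members was higher after OVA on 2 of 3 slides in wt and 3 of 3 in ko. Sec11c differed by 0.59 to 0.65 within slides in wt and by 0.65 to 0.93 in ko, and Kdelr3 by 0.24 to 0.67 and 0.39 to 0.97. With slide as a fixed block Sec11c, Sec24d, Spcs2, Ssr3 and Kdelr3 still passed, at 0.68, 0.47, 0.39, 0.58 and 0.65.

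Not all 9 calls were equally firm. Sec11c, Sec24d, Kdelr3, Ssr3, Spcs2 and Sec23b passed on average without any one array, Sec23b only just, with adjusted p up to 0.05 after rounding. Over 14 settings that changed the processing or the blocks, Sec11c, Sec24d and Kdelr3 each missed in 1 and Ssr3 in 2. Spcs2 missed in 4 of these, Sec23b in 5, Lman2 in 6, Ssr2 in 7 and Copa in 8. Copa and Lman2 each missed the threshold without any one of 12 of the 16 arrays, with adjusted p up to 0.0934 and 0.092, and Ssr2 without any one of 11, with adjusted p up to 0.0834. Copa passed without wt_saline 4, wt_OVA 1, ko_saline 4 or ko_OVA 4, Lman2 without wt_saline 4, wt_OVA 1, ko_OVA 1 or ko_OVA 4, and Ssr2 without wt_saline 3, wt_OVA 1, ko_saline 1, ko_saline 4 or ko_OVA 4. The wt call of Sec11c was missed without wt_saline 1 (0.62, adjusted p = 0.0532) or wt_saline 2 (0.62, adjusted p = 0.0515), and Sec24d missed in wt when wt_saline 1, wt_saline 2, wt_OVA 1, wt_OVA 2 or wt_OVA 4 was left out (adjusted p up to 0.0905). In ko, Sec11c passed only without ko_saline 2 or ko_OVA 4, Sec24d only without wt_saline 2 or ko_OVA 3, and Spcs2 only without wt_saline 4, wt_OVA 1, ko_saline 4 or ko_OVA 1, with adjusted p otherwise up to 0.161, 0.159 and 0.153.

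**Figure D5:**
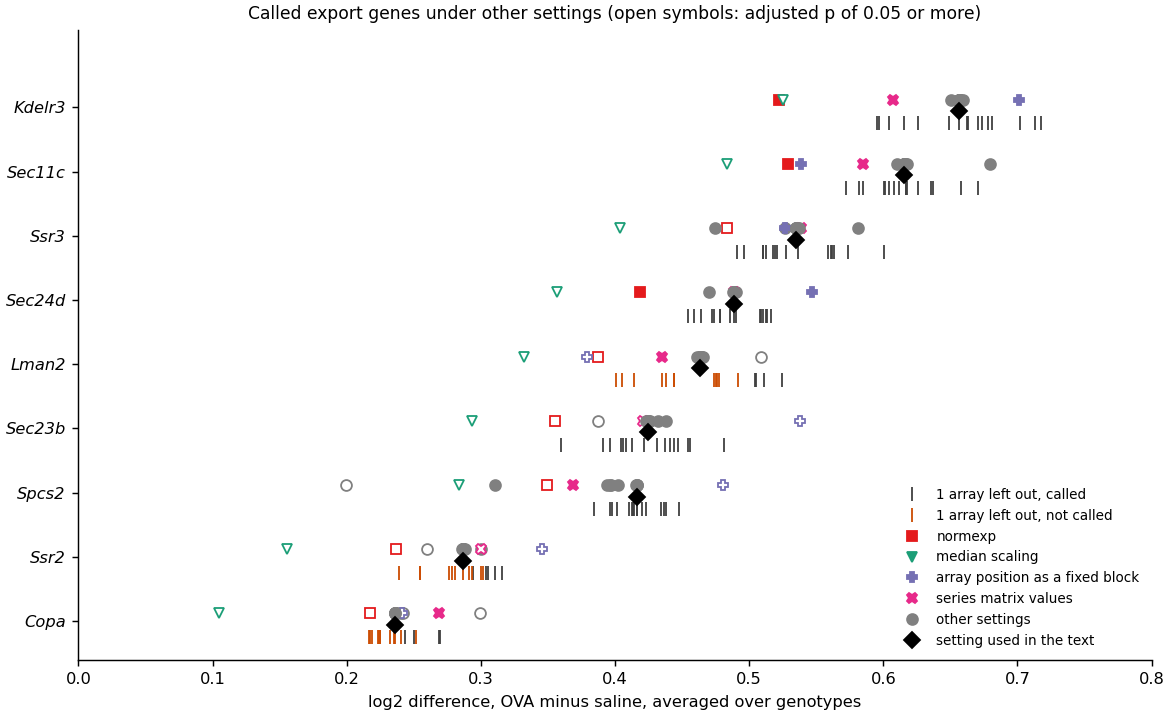
Averaged log2 difference, OVA minus saline (horizontal axis), of the 9 risen export genes under other settings. The black diamond is the value given in the text, symbols above it are other normalizations, filters and blocks, ticks below it leave out 1 array each, and open symbols or orange ticks mark an adjusted p of 0.05 or more. All values are above 0, and with scaling on the array median each gene kept its sign and missed the threshold, from 0.10 for Copa to 0.53 for Kdelr3.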

How the data were processed

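Airway epithelium RNA (0.5 ug, Cy3) was measured on 16 arrays. The authors' deposited scanner files hold intensity values after background subtraction, made with Feature Extraction (10.5.1.1 per the file headers, though the submitters' processing notes name 10.1). Their deposited table of log2 values for the whole series served as an alternative: within arrays it ranks probes as the median spot signal does (Spearman rho at least 0.99999), its column medians are 5.90 to 5.94, and its centring is not given in the sources used here.

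Control spots and spots flagged as outliers were left out, and 10 of the 66 tested members had no value on at least 1 array. Each array's signals were scaled to its 75th percentile, floored at -3.32 (log2) and log2 transformed. Of 41174 probes, 25615 that were well above background on 4 or more of the 16 arrays were kept, and the brightest stood for each gene. Symbols came from RefSeq accessions (24836 probes matched, GRCm38.p6 annotation); the arrays were designed on mm9. The 16 arrays were fitted with 1 mean per group in limma 3.58.1 (R 4.3.3), Benjamini-Hochberg at 0.05, and checked on simulated data. No member spot was saturated. Of 34 members with several kept probes, 4 had a probe of opposite sign for the averaged OVA effect.

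Members and lists were chosen with earlier results of these data known. Any member may be named; other genes come from the lists, up to 4 with the largest change among those that passed, or the 2 with the smallest p. Alternatives changed background correction, scaling, floor, filter, probe choice, blocks and arrays. Remaining lists, averaged: 0 of 7 basal cell, 0 of 5 T cell, 0 of 12 striated muscle and 0 of 4 thyroid genes passed in limma, and 1 of 9 macrophage genes fell (Marco); 1 basal and 1 macrophage gene were lower and 1 macrophage gene higher at an unadjusted p under 0.05.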

Additional observations from a re-analysis of the deposited data

Results flagged for a closer look

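Among the 9 risen members, 35 groups of 4 arrays were examined for an array apart from the others, and 1 was found where chance gives about 1 in 20. Ssr3 read 3.88 on wt_saline 4 and 3.34 to 3.39 on the other wt_saline arrays, so that 0.904 of the group's range lay between that array and the nearest, above Dixon's limit for 4 values.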

How the results depend on the processing

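Scaling mattered most. With each array scaled on its median, the median of all genes moved to -0.24 for OVA in wt, -0.10 on average, 0.32 for ko against wt after OVA and 0.28 for the interaction. Member medians there were -0.19, 0.03, 0.37 and 0.36, and 0 members passed in limma for OVA in wt, in ko or on average. The averaged member median was positive in 30 of 30 alternatives, from 0.03 to 0.16, the ko median in 31 of 31, and the wt median in 30 of 31.

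The averaged count of 9 became 3 with normexp and 4 with array position as a block, and lay between 6 and 12 under the other alternatives apart from median scaling. Median scaling apart, Sec11c, Sec24d and Kdelr3 passed under every averaged alternative. The wt count of 2 became 0 with normexp, 0 with array position as a block and 1 with only the arrays compared. The ko count of 3 became 0 with normexp, quantile normalization, a floor lower by 1, the series matrix values or only the arrays compared, and 1 with probes above background on all 16 arrays, slide as a fixed block or array position as a block. The cause was not tested. With wt_OVA 1 and 2 left out, an alternative chosen after seeing the data, the counts were 0 in wt, 1 in ko and 9 on average, and over all genes 98 and 63, 73 and 36, and 473 and 401 (higher and lower). With median scaling as well, they were 0, 0 and 7, and without wt_OVA 1 alone 0, 0 and 4. Both the 7 and the 4 held only 3 of the 9 risen members. Without single arrays the counts ran from 0 to 3 in wt, 0 to 2 in ko and 6 to 12 on average, and stayed 0 for ko against wt and the interaction.

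The labels do not say what the replicate numbers mark. Between groups, deviations of same-numbered arrays correlated from -0.41 to 0.41, with 8 of 24 pairs over 0.1. Those of differently numbered arrays ran from -0.57 to 0.48, with 25 of 72 over 0.1. Such correlations cannot show whether same-numbered samples shared a day or batch. With the replicate block the counts were 1 in wt, 0 in ko and 7 on average. Over all genes the averaged 691 higher and 509 lower became 216 and 174 with normexp, 358 and 167 with array position and 412 and 335 with slide as a fixed block. Array number and spread limit what can be seen at these small differences.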
